A study of Homo sapiens with 8 samples.

Results

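T133492 is a lncRNA target of a pooled CRISPRi growth screen, and 8 of the 6389 targeting sgRNAs of the deposited files were directed against it, out of 6862 sgRNAs in all. The members were taken by the target ID in the files, and the target itself was selected on the change of its sgRNAs over the culture, so the fold changes, intervals and calls below, from a fit over all sgRNAs, describe that change and are no independent test of it. In these data 1 of the 8 sgRNAs, YLQ3372, was lower after screening in every library and kept 0.620 of its starting abundance, whereas the abundance of the other 7 overlapped between the groups. Over the library, 168 of 6126 tested targeting sgRNAs (2.74%) likewise had every library after screening below every library before it.

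The screen used SW620, an established human cell line from a colorectal adenocarcinoma, transduced to carry a dCas9/KRAB fusion protein. All 8 libraries come from such cells carrying the same sgRNA pool after puromycin selection. The groups are 4 libraries before screening (day 0) and 4 after screening, whose titles give day 17 and whose cultured time is 18 days. The methods describe 4 separate infections, but no source used here ties the replicate numbers to them, so p-values behind the calls measure the spread between these libraries.

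In CRISPRi, an sgRNA brings a Cas9 protein without cutting activity to a site near a transcription start site (TSS), where the KRAB domain represses transcription. When the silenced transcript is needed for growth, cells that carry the sgRNA become rarer in the pool. The repression acts on DNA around the site, so a start site of another gene close by can be silenced too. T133492 has been placed at the promoter of GOT2, which encodes the mitochondrial aspartate aminotransferase, which works in the malate-aspartate shuttle that carries reducing equivalents into mitochondria and which also makes aspartate, a building block of proteins and nucleotides.

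The files list T133492, a transcript ID of the MiTranscriptome catalogue, on the plus strand of chromosome 16 with its TSS at position 58767775, and they name no neighboring gene. Their coordinates are not those of GRCh38. Of 571 targeting sgRNAs with 1 exact match on the listed chromosome among the RefSeq promoter windows of GRCh38.p14 (250 bases before to 50 after each gene start), 0 started within 1 bp of the listed position. On either side of T133492 the nearest matched sgRNAs, at listed positions 54963019 and 66510300, lay 33911 and 33902 bp above their GRCh38 positions. GOT2 spans chr16:58707131-58734316 on the minus strand in GRCh38.p14, and its promoter window is chr16:58734267-58734566. None of the 8 sgRNA sequences is found in that window on either strand. With either of these offsets 0 sites would fall inside it, and all 8 would lie below its first base, within the span of GOT2. The window reaches only 50 bases into the gene, so the search says nothing about the placement. The positions were not converted, so the distance of each sgRNA to the start of GOT2 is not given, and the placement at the GOT2 promoter was not tested. In the promoter windows of all 7 genes listed for the malate-aspartate shuttle (GOT1, GOT2, MDH1, MDH2, SLC25A11, SLC25A12 and SLC25A13), 0 sgRNAs of the library had an exact match. Sites more than 50 bases inside a gene would be missed by this search, so it does not show that no sgRNA lies near these genes.

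The 8 sgRNAs are shown in the order of their sites, since the response differed along a stretch of 300 bp. Each runs 5′ to 3′, and the capitals mark the 12 bases nearest to the PAM, the part of a guide in which mismatches are tolerated least.
YLQ3369: cctcccacTGAATGGGAGTC
YLQ3370: aaaggaagTGTGGCCCTCGG
YLQ3371: ggcgtgcaACGCAATCCCTA
YLQ3372: catccctcTGGTCCCCGCAC
YLQ3373: ggatcctgAGGATCACTGTG
YLQ3374: caatcctcAGTCCCCAGTAA
YLQ3375: gacagtgtGTATTTGGGGGC
YLQ3376: cggagatgGAGCCAGGGCGA

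That the PAM lies at the 3′ end was read from the promoter windows. All 565 of the matched sgRNAs with 3 further bases inside the window had NGG there, and 553 of 571 read on the strand opposite to the one listed in the files. Strands are given here as listed.

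The sites start at 58767728 (YLQ3369), 58767757 (YLQ3370), 58767780 (YLQ3371), 58767815 (YLQ3372), 58767837 (YLQ3373), 58767870 (YLQ3374), 58767938 (YLQ3375) and 58768008 (YLQ3376) on chromosome 16. YLQ3369 and YLQ3370 thus lie 47 and 18 bp upstream of the TSS, and the others lie 5, 40, 62, 95, 163 and 233 bp downstream. Upstream and downstream are counted along the listed plus strand of T133492. With either offset given above, downstream would run toward the start of GOT2, which is on the minus strand. Neighboring starts were 22 to 70 bp apart, so no 2 of these 20-base sites overlap. No sgRNA of another target was within 5000 bp, and the nearest was 2084642 bp away. YLQ3370, YLQ3371, YLQ3372 and YLQ3376 are listed on the plus strand and the remaining 4 on the minus strand.

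The GC content of the members was at or above the library median of 10 GC bases. It was 14 of 20 bases for YLQ3372 and YLQ3376, 12 for YLQ3369, YLQ3370 and YLQ3371, 11 for YLQ3373 and YLQ3375, and 10 for YLQ3374. YLQ3372 and YLQ3376, the most GC-rich pair, also had 9 GC bases within the 12 next to the PAM, as did YLQ3370, and the others had 6 or 7. YLQ3375 holds a run of 5 G, a run length reached by 6.75% of the targeting sgRNAs. YLQ3369 holds a 6-base stretch that is followed, at least 3 bases further on, by its own reverse complement, which 0.704% of the targeting sgRNAs match or exceed, and YLQ3373 holds such a stretch of 5 bases (3.88%). In YLQ3372, YLQ3374 and YLQ3376 the longest such stretch with at least 3 bases between was 2 bases. The nearest other oligo of the library differed from each member at 5 to 7 positions.

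The files hold raw counts of reads per sgRNA, with totals of 3471191 to 3999875 per library before and 3417248 to 3853506 after screening. Abundances are given in RPM, in which every library is scaled to 1000000 counts. The sources used here describe no collapsing of reads by a molecular identifier, and counting errors given here cover counting alone. The log2 fold change is the value after over before screening fitted by edgeR with TMM normalization, with its standard error (SE). An sgRNA was called depleted at an adjusted p under 0.05 by edgeR over all 6587 tested sgRNAs.

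All 8 members had enough counts to be tested. One of them was called depleted and 0 were called enriched. Over the library, 46 of 6126 tested targeting sgRNAs were called depleted (0.751%), and 41 of 785 target IDs with at least 5 tested sgRNAs had at least 1 such sgRNA (5.22%). Since the target was chosen with this contrast known, nothing is read from these counts. The median log2 fold change of the 8 sgRNAs was -0.14, against 0.01 over tested targeting and 0.00 over tested non-targeting sgRNAs, and 7 of the 8 values were below 0. With 1 library left out the median ran from -0.27 (without after screening replicate 3) to -0.09 (without before screening replicate 3), and YLQ3369, YLQ3370 and YLQ3373 each changed sign in at least 1 of these fits. Without YLQ3372 the median was -0.11.

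YLQ3372, 40 bp downstream of the TSS, was the most abundant of the 8 and the one called depleted. Before screening it had 385, 343, 360 and 348 RPM in replicates 1 to 4, from 1540, 1371, 1248 and 1336 counts. After screening it had 196, 225, 241 and 230 RPM, from 754, 778, 829 and 785 counts. The highest library after screening lay well below the lowest before it. The means were 359 ± 19 and 223 ± 19 RPM (SD, n = 4 each), and the log2 fold change was -0.68 (SE 0.09, 95% interval -0.85 to -0.50). Groups separated in this way for 1 of the 8 members and for 168 of the 6126 tested targeting sgRNAs (2.74%).

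The call of YLQ3372 rests on many reads and a modest fold. Its libraries varied by 5.30% before and 8.61% after screening (coefficient of variation), against 2.70% and 3.57% for counting alone. Its starting abundance was above that of 89.4% of all sgRNAs in the library, and 2 of the 46 depleted targeting sgRNAs started higher. By fold change it was 39th among those 46, that is, most of them fell further. Among the 6126 tested targeting sgRNAs it ranked 161 from the lowest. It lay at percentile 2.39 of the 461 tested non-targeting sgRNAs (SD 0.31), so some of these controls fell further. With a minimum of 100 counts before screening, it ranked 46 among 4501 targeting sgRNAs. The lowest log2 fold change of the 347 non-targeting sgRNAs with such counts was -0.42 (SD 0.14). When each of the 8 libraries was left out in turn, the log2 fold change of YLQ3372 stayed between -0.72 and -0.62.

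Neither neighbor of YLQ3372 was called. YLQ3371, 35 bp toward the TSS, had 201, 209, 216 and 194 RPM before and 169, 189, 199 and 212 RPM after screening. The groups overlapped, replicate 4 after screening being higher than 3 of the 4 libraries before. Its log2 fold change was -0.08 (SE 0.10) and its 95% interval -0.29 to 0.12.

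YLQ3373 starts 22 bp beyond YLQ3372 and was the least abundant member, with 89, 71, 76 and 48 counts before and 36, 52, 81 and 60 counts after screening. These are 22.3, 17.8, 21.9 and 12.5 RPM before and 9.34, 15.0, 23.5 and 17.6 RPM after screening. The order of libraries differed between the groups, and replicate 3 after screening was the highest of all 8. The log2 fold change of -0.18 (SE 0.37) has a 95% interval of -0.92 to 0.57, which includes the value of YLQ3372.

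YLQ3374, at 95 bp, was the second most abundant member and among the most precisely measured. It had 250, 250, 267 and 262 RPM before and 254, 222, 216 and 253 RPM after screening. Replicates 1 and 4 after screening lay within the range before it, and replicates 2 and 3 lay below that range. Its log2 fold change was -0.11 (SE 0.09, 95% interval -0.30 to 0.08). Its libraries before screening varied by 3.27%, close to the 3.19% of counting alone.

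YLQ3375, at 163 bp, had 122, 116, 140 and 120 RPM before screening. After screening it had 83.3, 91.2, 95.5 and 117 RPM. Of the 4 libraries after screening, 3 lay below every library before it, and replicate 4 overlapped with the lowest of them. The log2 fold change was -0.35 (SE 0.14, 95% interval -0.63 to -0.07), and the sgRNA was not called after adjustment over all tested sgRNAs. Without replicate 4 after screening it was -0.46, and the sgRNA was still not called.

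YLQ3376, the member farthest downstream at 233 bp, has the same GC count as YLQ3372 but far fewer reads. It had 32.5, 34.8, 23.6 and 22.9 RPM before screening, from 130, 139, 82 and 88 counts. After screening it had 14.0, 20.2, 35.7 and 7.90 RPM, from 54, 70, 123 and 27 counts. Replicates 1, 2 and 4 after screening lay below all libraries before it, and replicate 3 was the highest of all 8. The log2 fold change was -0.54 (SE 0.34, 95% interval -1.23 to 0.15) and was not called. It was -1.01 without replicate 3 and -0.28 without replicate 4 after screening, so single libraries set its size.

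Of the pair upstream of the TSS, YLQ3369 at -47 bp had 70.1, 76.8, 78.6 and 75.7 RPM before and 96.5, 49.9, 90.8 and 74.3 RPM after screening. Replicates 1 and 3 after screening were above every library before it and replicate 2 was below. Its log2 fold change was 0.06 (SE 0.18, 95% interval -0.30 to 0.42). YLQ3370 at -18 bp had 76.8, 66.5, 82.1 and 60.1 RPM before and 58.1, 99.6, 79.8 and 27.5 RPM after screening. Here replicate 2 after screening was the highest and replicate 4 the lowest of all 8 libraries. Its log2 fold change was -0.10 (SE 0.22, 95% interval -0.55 to 0.36). Both had similar levels to begin with, near the median of 76.6 RPM over the library, and neither was called.

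The scatter between libraries grew over the culture for each of the 8 sgRNAs, as it did over the library, where the chi-square of counts per degree of freedom was 4.86 to 5.27 between libraries before and 10.4 to 11.6 between libraries after screening. The coefficient of variation was 3.27% to 24.5% before and 8.49% to 61.4% after screening. After screening it was above the counting error for every member, and it was largest for YLQ3376 (61.4% against 12.1%), YLQ3370 (46.6% against 6.53%) and YLQ3373 (35.9% against 13.2%). YLQ3369 followed with 26.8% at a mean of 278 counts, and YLQ3370 had a mean of 235 counts, so the scatter was not confined to the members with fewest reads. YLQ3370 and YLQ3376 were both lowest in replicate 4 after screening, whereas YLQ3371 and YLQ3375 were highest there.

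From the 5′-most to the 3′-most site the log2 fold changes were 0.06, -0.10, -0.08, -0.68, -0.18, -0.11, -0.35 and -0.54. Values further downstream tended to be lower (Spearman rho -0.71 over the 8 sgRNAs, Pearson r -0.61), although YLQ3372 in the middle of the stretch was the lowest and the value of YLQ3376, the farthest, moved between -1.01 and -0.28 with single libraries left out. Across the library the median log2 fold change was 0.02 just upstream of the TSS (from -99 bp), 0.01 over the first 100 bp downstream and 0.01 beyond these up to 300 bp, and 8 of 797, 10 of 1474 and 25 of 3063 were called depleted. With GC count the Pearson r was -0.67 and the Spearman rho -0.30, the former carried by YLQ3372 and YLQ3376 with 14 GC bases. With the log2 of the starting RPM both were close to 0 (r -0.12, rho -0.10). These values describe 8 sgRNAs that share a target and the same libraries. Across the library, the 450 tested targeting sgRNAs with 14 GC bases had a median log2 fold change of 0.01 and 6 of them were called depleted (1.33%), against 0.383% of those with 10 and 1.20% of those with 12. The 4 members listed on the plus strand had a median of -0.32 and the 4 on the minus strand a median of -0.14, with overlapping ranges (-0.68 to -0.08 and -0.35 to 0.06).

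Summed over the 8 sgRNAs, T133492 held 1160, 1114, 1188 and 1095 RPM before screening and 880, 911, 981 and 939 RPM after it. The mean went from 1139 ± 43 to 928 ± 43 RPM (SD, n = 4 each). Without YLQ3372 it went from 780 ± 34 to 705 ± 26 RPM, so most of the loss of the sum came from this sgRNA. YLQ3372 made up 30.3% to 33.2% of the reads of the target before and 22.2% to 24.6% after screening.

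The target IDs whose mean log2(RPM + 1) over tested sgRNAs ran most like that of T133492 across the 8 libraries were TCONS_00019237 on chromosome 11 (Pearson r 0.92), T281073 on chromosome 5 (r 0.91) and T289957 on chromosome 5 (r 0.89), out of the 785 IDs with at least 5 tested sgRNAs. The mean of T133492 was 6.59 ± 0.10 before and 6.28 ± 0.21 after screening (SD, n = 4 each). TCONS_00019237 also had 1 depleted sgRNA among 8, with a log2 fold change of -2.65, and the 5 sgRNAs of T281073 and 8 of T289957 had 0. The medians of these 3 IDs were -0.03, -0.06 and -0.08. The points are 8 libraries in 2 groups and are shared by all these IDs.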

How the data were processed

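Genomic DNA was amplified over the sgRNA insert in 2 rounds of PCR, and the authors deposited, for every library, an unnormalized read count of each sgRNA. FastQC 0.11.2, Bowtie and hg38 stand in the submitters' processing notes; how reads were assigned to sgRNAs is not given in the sources used here. Libraries were grouped by their titles.

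After filterByExpr and TMM scaling (factors 0.993 to 1.01), the groups were compared by edgeR's quasi-likelihood test (edgeR 4.0.16, R 4.3.3, robust fit), with p-values adjusted by the Benjamini-Hochberg method over 6587 sgRNAs (biological coefficient of variation 0.183). The steps were also run on simulated counts that had the same dispersion before and after screening. The scatter of the deposited counts grew over the culture, so nothing here rests on that run. The SE is the log2 fold change over the root of F. RPM, SD and sequence features were computed with Python 3.11.15 from all sgRNAs.

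The target, the lists and the tests were chosen with earlier results of these data known. Named were every sgRNA of T133492, sgRNAs within 5000 bp, and the 3 target IDs most alike by Pearson r. Alternatives were other scalings, DESeq2 1.42.0, other filters and pseudocounts, a replicate block and each library left out. RefSeq promoter windows of GRCh38.p14 were searched for the sgRNA sequences; a whole genome was not used here.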

Additional observations from a re-analysis of the deposited data

How the results depend on the processing

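YLQ3372 was the 1 member called depleted in all 14 refits (total counts, factors from non-targeting sgRNAs, DESeq2, no count filter, a minimum of 100 counts before screening, the replicate block, and each of the 8 libraries left out), with a log2 fold change between -0.72 and -0.62 over these and both pseudocounts. The number of depleted targeting sgRNAs over the library was 74 with DESeq2 and 36 to 49 with 1 library left out, against 46. The median of the members was -0.27 to -0.09 with 1 library left out (lowest without after screening replicate 3, highest without before screening replicate 3), and -0.11 over the 6 members that pass 100 counts, which leaves out YLQ3373 and YLQ3376. YLQ3376 ran from -1.01 to -0.28 with 1 library left out. The sign of 3 uncalled members changed: YLQ3369 to -0.06 and YLQ3373 to 0.02 without after screening replicate 1, and YLQ3370 to 0.16 without after screening replicate 4; YLQ3369 was also below 0 without after screening replicate 3 (-0.02).

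With the replicate block, 1 member and 52 targeting sgRNAs were called depleted and the median of the members was -0.21. In that fit the lowest member was YLQ3376 at -0.70, uncalled, with YLQ3372 at -0.68. Each of the 8 libraries correlated best with its own number in the other group. The same-number correlations of deviations from the group means were 0.0523 to 0.11, against -0.0652 to 0.0168 for differing numbers. Every same-number value was thus above every other, so the numbers carry a weak link between the groups. The reported fit leaves this link out, since only 2 of 4 values were above the threshold of 0.1 used here. That threshold does not decide whether the libraries are paired, so the fit with the replicate block stands beside the reported one. YLQ3373 and YLQ3376 had the fewest counts (means of 71.0 and 109.8 before screening), and their scatter after screening was above counting error (35.9% against 13.2% and 61.4% against 12.1%).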

Other observations

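Within the RefSeq promoter windows of GRCh38.p14, 2 of the 8 sgRNAs had a site with NGG and at most 3 mismatches, and 0 had an exact one. The site of YLQ3372 lies in the window of LOC105375047, a lncRNA gene on chromosome 6, and differs by T3A and A19G, counted from 1 at the 5′ end of the guide, with the base of the guide first. The site of YLQ3375 lies in the window of LOC112268412, a lncRNA gene on chromosome 2, and differs by A2C, A11G and T13G. The sequence outside these windows was not searched, and binding at either site was not tested.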
